A study of Mus musculus with 14 samples.

Results

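H3K27me3 was examined at the imprinted domain of mouse chromosome 7 that holds Ndn, Magel2, Mkrn3, Peg12, Snrpn and Ube3a. The mark is the trimethylated lysine that Polycomb repressive complex 2 places on histone H3 at silent genes. Peaks were taken as members where they lay within 5 kb of the RefSeq body of 1 of these 6 genes in the mm10 assembly, which gave 19 of the 74458 peaks of the series. Of these, 9 belonged to the intronless genes (1 to Ndn, 2 to Magel2, 2 to Mkrn3 and 4 to Peg12), and 10 to Snrpn (9) and Ube3a (1). The choice of genes and of the contrast between both sets was made with earlier results of these data known, and the higher level of the intronless set is described without a test.

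The libraries were H3K27me3 Cut&Tag, in which an antibody directs the transposase Tn5 to chromatin that carries the mark so that adapters are inserted next to it. They came from mouse embryonic stem cells (mESCs) in which CRISPR-Cas9 had removed an anchor of Polycomb-associated chromatin loops. The anchor lay at the Hoxa cluster for 3 libraries, at Wnt6 for 2 and at Hmx1 for 2. For Wnt6 and Hmx1 this is fewer than the number of replicates named by the study. All were grown with LIF on CD1 feeder cells, and the parent line was a hybrid of inbred mouse strains. The table had no column for unedited cells, so that each deletion was compared with the others pooled and with each of the others. Clones were picked after editing, and the labels name none. The study speaks of replicates of each deletion clone, without giving the number of clones per deletion. If, as this reads, a deletion is a single clone, deletion and clone cannot be told apart. All measures of spread and all tests then rest on libraries of the same clone, whose spread may be technical. Counts were not split by parental allele, so the maternal and the paternal copy of the domain could not be told apart, and the imprint itself was not checked.

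In an imprinted domain, the copy inherited from one parent is silenced. Here Ndn, Magel2, Mkrn3, Peg12 and Snrpn are expressed from the paternal chromosome, whereas Ube3a is expressed from the maternal chromosome in neurons and from both chromosomes in most other cells. The imprinting centre at the Snurf-Snrpn promoter, methylated on the maternal chromosome, governs the whole domain. Ndn encodes necdin, a growth suppressor of the MAGE family, and Magel2 a MAGE protein that partners ubiquitin ligases in endosomal sorting. Mkrn3 encodes a RING-finger ubiquitin ligase that restrains the onset of puberty, and Peg12 a relative of the Frat proteins that bind GSK3. Snrpn encodes the SmN protein of the spliceosome. Ube3a encodes the E6-AP ubiquitin ligase. Loss of the paternal genes in humans leads to Prader-Willi syndrome and loss of maternal UBE3A to Angelman syndrome.

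The stretch before the start of each gene is shown because the members with strong peaks and those with weak or no peaks at the start can be read side by side. Each sequence is the 250 bases upstream of the RefSeq start (GRCm38.p6), in the direction of transcription, with CG dinucleotides, the site of DNA methylation in mammals, in capitals. Of the 4 starts of Snrpn, the outermost and the innermost are given.
Ndn, chr7:62348027-62348276, plus strand: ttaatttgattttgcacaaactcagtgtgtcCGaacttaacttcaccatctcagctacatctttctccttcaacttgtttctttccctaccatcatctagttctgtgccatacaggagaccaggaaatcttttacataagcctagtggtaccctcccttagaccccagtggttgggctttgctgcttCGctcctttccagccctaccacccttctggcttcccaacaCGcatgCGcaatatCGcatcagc
Magel2, chr7:62376729-62376978, plus strand: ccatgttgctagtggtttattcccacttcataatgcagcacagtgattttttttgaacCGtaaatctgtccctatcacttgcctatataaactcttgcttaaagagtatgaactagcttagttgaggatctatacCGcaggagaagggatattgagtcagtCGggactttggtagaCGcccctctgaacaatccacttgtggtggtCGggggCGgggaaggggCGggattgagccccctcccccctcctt
Mkrn3, chr7:62420154-62420403, minus strand: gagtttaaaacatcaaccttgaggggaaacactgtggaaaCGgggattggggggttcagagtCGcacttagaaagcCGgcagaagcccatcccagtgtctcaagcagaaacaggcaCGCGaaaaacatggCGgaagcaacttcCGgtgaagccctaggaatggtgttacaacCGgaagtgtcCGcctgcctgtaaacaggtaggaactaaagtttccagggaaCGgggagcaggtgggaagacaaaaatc
Peg12, chr7:62464511-62464760, minus strand: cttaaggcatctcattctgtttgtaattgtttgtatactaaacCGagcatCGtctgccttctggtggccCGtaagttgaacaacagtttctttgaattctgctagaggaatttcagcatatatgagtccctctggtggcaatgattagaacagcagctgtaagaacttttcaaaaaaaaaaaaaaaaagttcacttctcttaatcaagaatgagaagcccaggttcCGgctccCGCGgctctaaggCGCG
Ube3a, chr7:59228500-59228749, plus strand: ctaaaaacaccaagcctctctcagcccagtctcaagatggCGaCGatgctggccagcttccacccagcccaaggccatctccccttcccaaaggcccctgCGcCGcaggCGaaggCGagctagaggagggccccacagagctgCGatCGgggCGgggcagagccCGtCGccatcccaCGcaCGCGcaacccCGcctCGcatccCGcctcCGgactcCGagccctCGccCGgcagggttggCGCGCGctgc
Snrpn, outermost start, chr7:60450178-60450427, minus strand: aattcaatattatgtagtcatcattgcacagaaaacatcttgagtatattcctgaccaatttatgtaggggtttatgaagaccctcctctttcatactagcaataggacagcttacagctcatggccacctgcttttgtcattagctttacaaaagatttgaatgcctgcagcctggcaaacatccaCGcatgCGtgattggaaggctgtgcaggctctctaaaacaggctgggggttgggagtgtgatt
Snrpn, innermost start, chr7:60005200-60005449, minus strand: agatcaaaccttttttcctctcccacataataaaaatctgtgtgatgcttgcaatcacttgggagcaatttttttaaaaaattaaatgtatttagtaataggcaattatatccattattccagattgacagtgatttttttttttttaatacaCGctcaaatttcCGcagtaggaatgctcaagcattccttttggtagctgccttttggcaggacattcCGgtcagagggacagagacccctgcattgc

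RefSeq had 9 windows of 250 bases before to 50 bases after a start for the 6 genes. Ube3a had the most CG dinucleotides, with 29 in its window, a number that 12.9% of the 32851 RefSeq promoters reached. Mkrn3 had 15, Peg12 12, Ndn 11 and Magel2 10, and between 34.6% and 43.5% of promoters had at least as many. The 4 Snrpn windows had 2, 3, 4 and 7, where the median of all promoters was 7. Among the intronless genes, the density of CG was thus close to the middle of the range, and the window richest in CG belonged to a gene with a weak peak. The letters CGCATGCG, a palindrome that reads the same on both strands and was picked after the sequences were seen, were found in 5 of the 9 windows, those of Ndn and all 4 of Snrpn. They were present in 1.87% of all promoter windows. The 3 outer Snrpn windows shared runs of up to 34 letters with each other, so that they are copies and not separate occurrences.

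Peaks lay over the start in some members and away from it in others. All 300 bases of the Ube3a and Magel2 windows, 202 of those of Ndn and 88 of those of Peg12 were under a peak. The window of Mkrn3 was not, as its nearest peak stopped 93 bp inside the gene. None of the 4 Snrpn windows overlapped a peak. The nearest peak to the innermost Snrpn start lay 850 bp away and was weak (1.65 CPM as a mean of 7 libraries, where CPM is the count in a peak scaled by the size of its library). That to the outermost start was 25230 bp upstream and belonged to no member.

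The libraries differed in depth, with totals of 6016500 to 36563541 counts over all peaks. Each label was checked by its own deleted gene or cluster, where libraries kept 0.101% to 0.161% of the level of the others for Hoxa, 3.15% to 3.18% for Wnt6 and 0.227% to 0.403% for Hmx1. Peaks near 8 lineage genes that are silent in mESCs held 57.3 CPM per kb of peak and those near 7 of 8 pluripotency genes 14.8 CPM per kb, with no peak near Tdgf1. Of the 303.9 CPM of the pluripotency genes, Esrrb alone held 239.2, while the others held from 2.07 (Nanog) to 36.6 (Klf4). For 5 of 6 fibroblast genes the level was 34.8 CPM per kb, with no peak near Col3a1. The H3K27me3 of feeder cells was not measured, so their part in the levels was not tested.

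At Ndn, Magel2 and Peg12 H3K27me3 was strong and formed separate peaks, whereas Mkrn3 had a moderate level. Ndn, Magel2, Mkrn3 and Peg12 lie within 116 kb, and 23 peaks of the table fell in that stretch. The remaining 14, over 5 kb from any of the 4 genes, had 4.61 to 31.2 CPM per kb, against 68.7 for Ndn, 56.0 for the main peak of Magel2 and 83.2 for the densest peak of Peg12. The main peak of Mkrn3, at 18.7 CPM per kb, was less dense than 3 of these 14 peaks. Snrpn and Ube3a lie at a distance, with 1.90 Mb between Snrpn and Ndn and 672 kb between Ube3a and Snrpn.

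Ndn (chr7:62348277-62349928, plus strand) carried 1 peak, chr7:62348125-62349753, which covered the start and nearly the whole gene. It held 110.5, 107.3 and 120.1 CPM in the Hoxa libraries, 102.3 and 103.7 in the Wnt6 libraries, and 122.9 and 116.3 in the Hmx1 libraries. The Wnt6 libraries were the lowest of the 7, and those of Hoxa and Hmx1 overlapped. Its 68.7 CPM per kb placed it in the top 2.29% of all peaks.

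Magel2 (chr7:62376979-62381640, plus strand) had the highest count of the domain. Its main peak, chr7:62376695-62380431, ran over the start and most of the gene, and held 202.3, 202.6 and 208.3 CPM in Hoxa, 207.3 and 202.3 in Wnt6, and 217.2 and 225.5 in Hmx1 libraries. Both Hmx1 libraries lay above the other 5. The coefficient of variation over the 7 libraries was 4.24%, and 4.06% of the peaks of like level varied less. For the main peaks of Ndn, Peg12 and Mkrn3 this share was 49.9%, 38.8% and 68.8%, so that the main peaks did not share this steadiness. Among the further peaks it was 1.28%, 7.59% and 17.2% for Peg12, 42.4% for Magel2 and 34.7% for Mkrn3. The second peak of Magel2, 3549 bp past its end, had a mean of 3.61 CPM.

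Peg12 (chr7:62461871-62464510, minus strand) held the densest peak. The peak at chr7:62463468-62464548, over the start, had 83.2 CPM per kb and was in the top 1.07% of all peaks. It gave 90.2, 82.3 and 90.7 CPM in Hoxa, 95.8 and 80.5 in Wnt6, and 94.2 and 95.4 in Hmx1 libraries, and the highest and the lowest value came from the same deletion. The level was lower downstream, at 44.0 CPM per kb at chr7:62462284-62463059 inside the gene, and 17.6 and 18.7 at the next peaks beyond its end. It did not fall steadily farther on. Peaks over 5 kb from the gene had 20.3 (chr7:62455757-62456210) and 31.2 CPM per kb (chr7:62452442-62452678), followed by 18.6 (chr7:62451509-62451807).

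Mkrn3 (chr7:62417593-62420153, minus strand) was the weakest of the intronless genes, and the strongest Snrpn peak (19.9 CPM per kb) was denser than its main peak (18.7). Its main peak, chr7:62418643-62420060, covered the first part of the gene but not the start, with 22.8, 23.5 and 26.9 CPM in Hoxa, 24.5 and 24.5 in Wnt6, and 33.3 and 29.6 in Hmx1 libraries. Both Hmx1 libraries were above all others. A second peak 3152 bp upstream of the start had a mean of 3.70 CPM, and there both Hmx1 libraries (2.70 and 3.07 CPM) were the lowest of the 7. Peg12 resembles the Frat genes and Mkrn3 resembles Mkrn1 and Mkrn2 in sequence, and the outer Snrpn windows shared runs of up to 34 letters. How the authors counted reads that match several places is not given in the sources used here. The counts of Peg12, Mkrn3 and Snrpn, and the contrast between both sets, are therefore uncertain to an extent that was not measured.

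Ube3a (chr7:59228750-59310837, plus strand) had a single peak, chr7:59228185-59229442, over its start. It held 11.2, 10.8 and 10.3 CPM in Hoxa, 12.5 and 11.6 in Wnt6, and 13.0 and 13.0 in Hmx1 libraries. The 3 deletions did not overlap here, where 33% to 35.8% of all peaks did not overlap between single deletions. The share of all peaks that separate all 3 was not computed. At 9.36 CPM per kb, 39.8% of all peaks were denser.

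Snrpn (chr7:59982495-60450177, minus strand) is the longest of the 6 genes, at 468 kb in this annotation, and its 9 peaks were spread over its body. The strongest, chr7:60155401-60156058, held 11.9, 13.7 and 10.4 CPM in Hoxa, 13.7 and 13.0 in Wnt6, and 14.7 and 14.1 in Hmx1 libraries. It also lies on the pseudogene Gm7367 and, like the other 8, within the transcript Snhg14, which overlaps Snrpn and Ube3a. These 8 had means of 0.924 to 2.79 CPM, or 2.67 to 8.68 CPM per kb, and 2 of them were among the 1% of peaks with the lowest density. The member peak nearest the outermost start, chr7:60415429-60415805, 34372 bp inside the gene, had 2.35, 2.79 and 2.58 CPM in Hoxa, 3.29 and 2.82 in Wnt6, and 2.87 and 2.79 in Hmx1 libraries. At such levels a peak held few counts, as in the 2 counts of chr7:60240707-60241053 in each of 2 libraries, which are the third of Hoxa and the first of Hmx1.

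**Figure D1:**
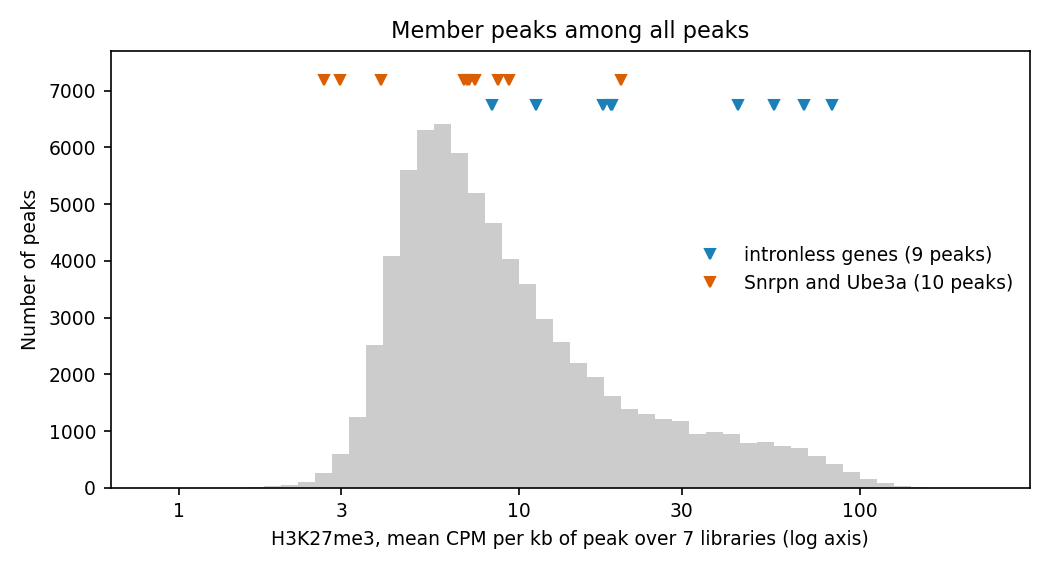
Number of peaks (grey histogram, all 74458 peaks) against H3K27me3 in CPM per kb of peak, as a mean over 7 libraries on a log axis, with triangles for the 9 peaks of the intronless genes and the 10 of Snrpn and Ube3a. The intronless peaks ranged from 8.34 to 83.2 CPM per kb, and those of Snrpn and Ube3a lay below 10 but for a Snrpn peak at 19.9 CPM per kb, which was denser than 5 of the 9 intronless peaks.

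Summed over the peaks of a gene and divided by their length, the mean levels over 7 libraries were ordered Ndn (68.7 CPM per kb, range 62.8 to 75.5), Magel2 (52.5, 50.6 to 56.6), Peg12 (44.6, 40.3 to 47.4), Mkrn3 (16.2, 14.5 to 19.3), Ube3a (9.36, 8.20 to 10.4) and Snrpn (8.06, 7.29 to 8.55). The ranges of Ube3a and Snrpn overlapped, and no other neighbours in this order did. As counts, the 4 intronless genes made up 92.6% of the CPM of the members. Their level per kb of peak was 5.52 ± 0.364 (SD, n = 7) times that of Snrpn and Ube3a. By deletion, the ratio was 5.76 ± 0.402 for Hoxa (SD, n = 3), 5.15 ± 0.0955 for Wnt6 (SD, n = 2) and 5.53 ± 0.00317 for Hmx1 (SD, n = 2). The single libraries ranged from 5.08 to 6.23, with both Wnt6 libraries the lowest. The ratio was lower, at 4.32, with the strongest peak of each gene alone, where the Snrpn peak on the pseudogene has more weight, and it was 3.70 with peaks within 20 kb.

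**Figure D2:**
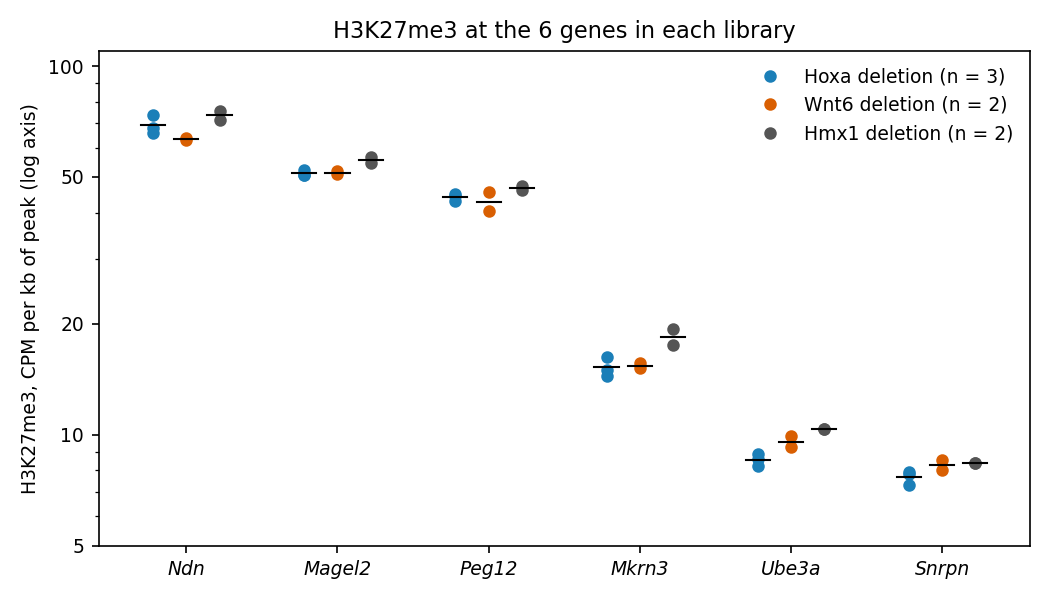
H3K27me3 of each gene (CPM per kb of peak, log axis) with 1 point per library, coloured by deletion, and black lines at the mean of each deletion. All points of Ndn, Magel2 and Peg12 are above 40 CPM per kb, those of Mkrn3 between 14.5 and 19.3, and those of Ube3a and Snrpn below 10.4.

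Each deletion was then compared with the others to ask whether the mark of the domain differed among them. The deleted anchors are on chromosomes other than 7. In edgeR's quasi-likelihood test with Benjamini-Hochberg adjustment over all 74441 tested peaks, calls required an adjusted p under 0.05 and a fold change beyond 1 in either direction on the log2 scale. All 19 member peaks passed the filter on low counts, and none was called in any of the 3 comparisons with the pooled others. Of all tested peaks, 1.55% were called for Hoxa, 0.0497% for Wnt6 and 0.0282% for Hmx1, so that less than 1 call among 19 peaks would be found at these rates. DESeq2 called none of the 19 either. At an unadjusted p under 0.05, edgeR found 0 members for Hoxa, 0 for Wnt6 and 1 for Hmx1, beside 20.8%, 5.2% and 8.96% of all peaks, and DESeq2 found the same numbers of members.

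Intervals were narrow for the strong peaks of the intronless genes and wider for the second peaks of Magel2 and Mkrn3. All 9 peaks of the intronless genes had 95% intervals within 1 of 0 on the log2 scale in the 3 comparisons with the pooled others. The farthest bound was -0.98, for the second peak of Mkrn3 in the Hmx1 comparison. The intervals of Ndn reached from -0.15 to 0.19 for Hoxa, from -0.35 to 0.02 for Wnt6 and from -0.05 to 0.32 for Hmx1. Those of the main Magel2 peak reached from -0.20 to 0.08, from -0.20 to 0.11 and from -0.02 to 0.25 in the same order. For the Peg12 peak over the start they were -0.23 to 0.12, -0.25 to 0.17 and -0.08 to 0.31. The Ube3a peak was bounded by -0.49 to 0.06, -0.30 to 0.39 and -0.12 to 0.53. The weak peaks of Snrpn were measured less well. With Ube3a included, 7, 5 and 5 of the 10 peaks had intervals within 1 of 0, and the widest interval spanned 1.30 to either side of its estimate, for chr7:60240707-60241053 in the Hmx1 comparison.

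**Figure D3:**
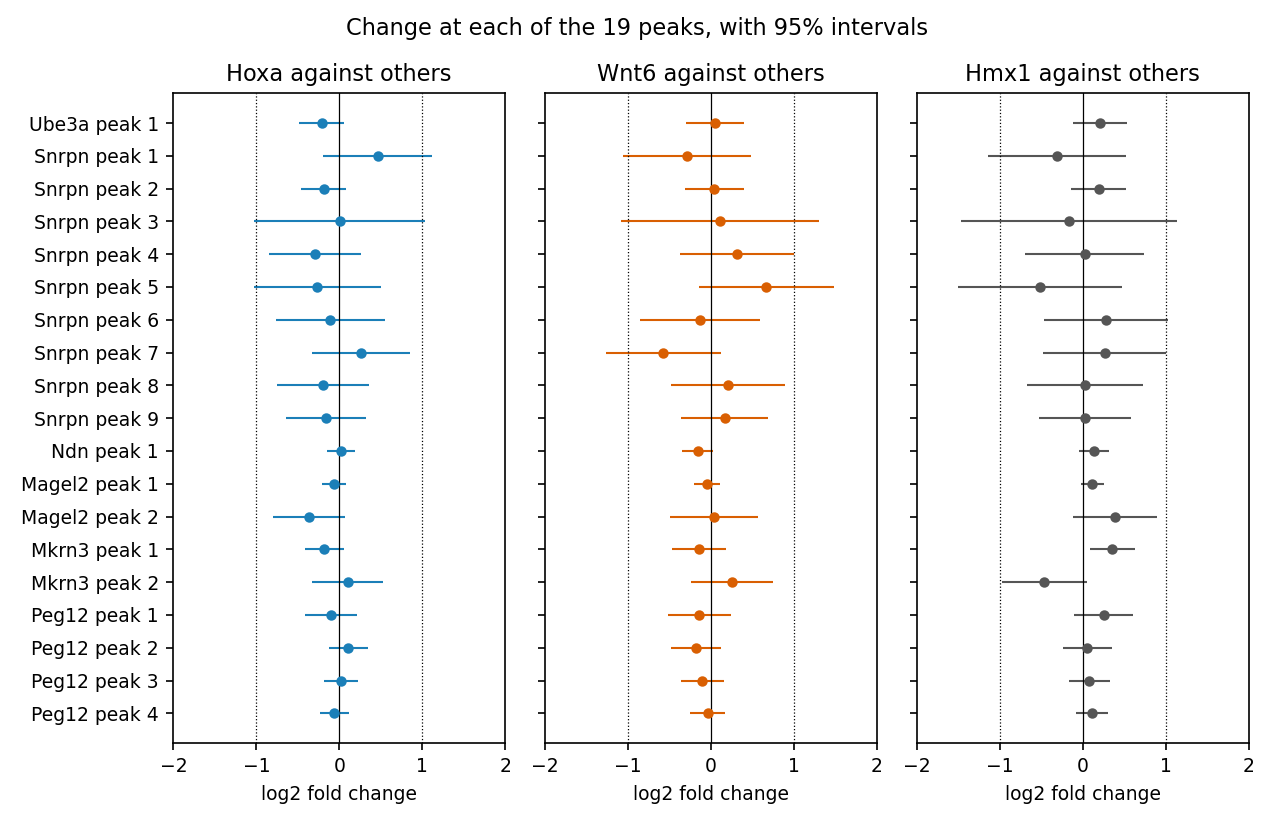
Log2 fold change (points) with 95% intervals (lines) of each of the 19 peaks, numbered in the order of the chromosome, for each deletion against the pooled others, with dotted lines at -1 and 1. No point lies beyond a dotted line, and the widest intervals belong to the weak Snrpn peaks.

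Among the members, the lowest p in the comparisons with the pooled others was that of Mkrn3 in the Hmx1 deletion. Its main peak was 0.36 ± 0.13 (SE) higher on the log2 scale than in the others (edgeR adjusted p = 0.434, 95% interval 0.09 to 0.63), and so was not called. Summed over both Mkrn3 peaks, 36.0 and 32.7 CPM in the Hmx1 libraries stood against 26.9 to 30.2 CPM in the other 5 (log2 fold change 0.26, 95% interval 0.04 to 0.49, edgeR adjusted p = 0.322). The second Mkrn3 peak had an estimate in the opposite direction, -0.47 (-0.98 to 0.04). Over the whole domain no gene sum was called in the 3 comparisons, where 0.818%, 0.0429% and 0.0322% of 27982 genes were called for Hoxa, Wnt6 and Hmx1. DESeq2 called no member gene either, and at an unadjusted p under 0.05 edgeR found 0, 0 and 1 of the 6 (Mkrn3, for Hmx1), beside 27.3%, 5.44% and 12.7% of all genes. All 18 intervals of the gene sums lay within 1 of 0.

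The median log2 fold change of the 19 peaks was -0.10 for Hoxa, -0.04 for Wnt6 and 0.11 for Hmx1, beside medians over all tested peaks of -0.01, -0.00 and -0.01. In the Hmx1 comparison 15 of the 19 estimates were above 0. The 10% of all peaks with the highest CPM had a median of 0.05 in that comparison, and the peaks near the 8 lineage genes 0.08. The 6 gene sums were all higher in the mean of the Hmx1 libraries than in that of the Hoxa libraries, from 1.06 to 1.21 times. In Hoxa against Hmx1, the median log2 fold change was -0.12 for the member peaks. It was -0.04 for the 10% of all peaks with the highest CPM and -0.08 for peaks near the lineage genes. The shares of all peaks and genes with these directions were not computed.

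Libraries of one group that lie wholly above or below the rest are common with so few libraries. For Hoxa, 2 members were lower without overlap (Ube3a and the Snrpn member peak nearest the outermost start) and 0 higher, where 18.3% of all peaks did not overlap in either direction. For Wnt6, 4 were lower, with Ndn and 2 peaks of Peg12 among them, and 1 of Snrpn higher, where the share of all peaks was 10.1%. For Hmx1, 5 were higher (the strongest peaks of Ube3a, Snrpn, Magel2 and Mkrn3, and a Peg12 peak) and 1 was lower (the second of Mkrn3), where 14.9% of all peaks and 19.9% of the 10% with the highest CPM did not overlap.

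Between single deletions, again none of the 19 peaks was called, where 1.23% of all peaks were called between Hoxa and Wnt6, 1.8% between Hoxa and Hmx1 and 0.0887% between Wnt6 and Hmx1. DESeq2 called none of them in these 3 comparisons. In both tools 0, 1 and 2 members, respectively, had an unadjusted p under 0.05, where edgeR found 16.6%, 19% and 5.66% of all peaks. Closest to the threshold was again the main Mkrn3 peak, at -0.35 ± 0.13 (SE) in Hoxa against Hmx1 (edgeR adjusted p = 0.0863). Over 17 alternative settings its adjusted p ranged from 0.0309 to 0.377 and its log2 fold change from -0.45 to -0.28, so that the fold change stayed under the minimum. Of the 9 intronless peaks, 9 had intervals within 1 of 0 between Hoxa and Wnt6, and 8 in each of the other two comparisons. The second peak of Magel2 reached -1.02 in Hoxa against Hmx1, and the second peak of Mkrn3 reached 1.10 in Wnt6 against Hmx1. Without the libraries overlapping, 7, 9 and 11 members differed between the deletions in the same order, beside 33%, 35.5% and 35.8% of all peaks. These 3 comparisons share libraries with each other and with the pooled ones.

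Other imprinted genes and the neighbours of the domain were measured in the same libraries. Of 134 peaks near 30 imprinted genes elsewhere, 2 were called higher and 9 lower in the Hoxa deletion, 0 in the Wnt6 deletion and 1 lower in the Hmx1 deletion, and their median log2 fold changes were 0.01, -0.06 and 0.06. Summed by gene, Mest had 5.47 ± 0.780 CPM with the Hoxa deletion (SD, n = 3), 46.6 ± 0.382 with that of Wnt6 (SD, n = 2) and 58.0 ± 0.387 with that of Hmx1 (SD, n = 2). Mest is a paternally expressed gene of chromosome 6, which also holds the deleted Hoxa cluster. H19, a maternally expressed non-coding RNA gene of chromosome 7, was 2.20 lower on the log2 scale in the Hoxa deletion than in the pooled others (edgeR adjusted p = 6.29e-20). There Peg13, a paternally expressed non-coding RNA gene, fell by 4.15 on the same scale (edgeR adjusted p = 3.12e-16). Nap1l5, a paternally expressed intronless gene, had 26.2 ± 2.75 CPM with the Hoxa deletion (SD, n = 3) and 18.0 ± 0.591 with that of Wnt6 (SD, n = 2), but 0.326 ± 0.0164 with that of Hmx1 (SD, n = 2). Its sum was called higher in Hoxa against the pooled others (log2 fold change 1.42, edgeR adjusted p = 0.0133), which include these low Hmx1 libraries. No peak of Nap1l5 was called between Hoxa and Wnt6. Whether the members differ from this list in how often they were called was not tested.

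**Figure D4:**
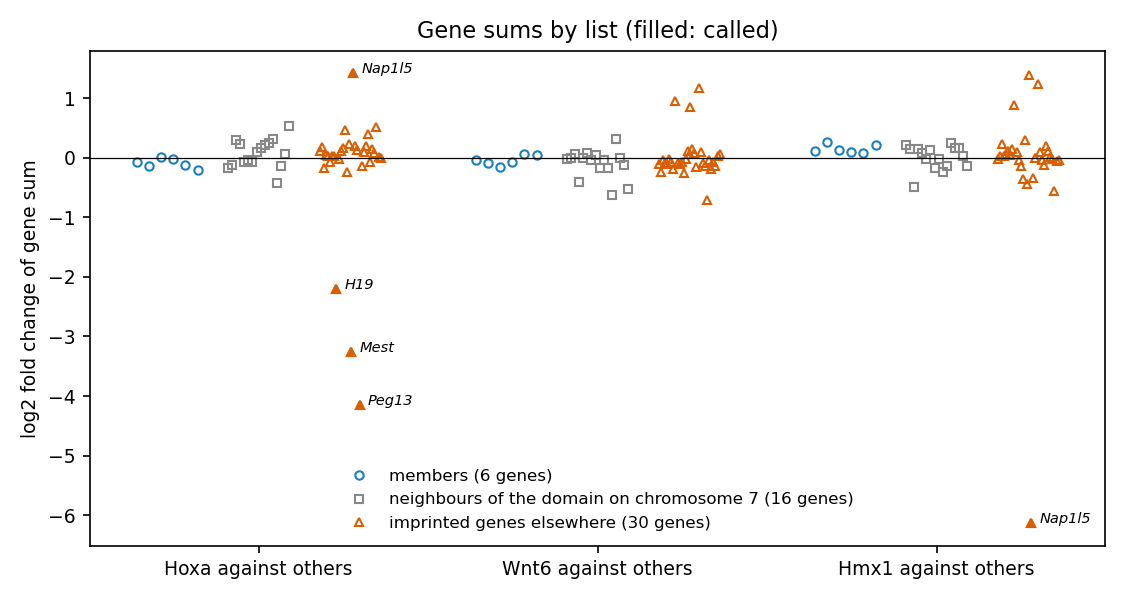
Log2 fold change of the summed H3K27me3 of each gene for the 6 members (circles), 16 neighbours on chromosome 7 (squares) and 30 imprinted genes elsewhere (triangles), for each deletion against the pooled others, with filled and named symbols for called genes. The members lie between -0.21 and 0.26, and the 5 filled symbols all belong to imprinted genes elsewhere.

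Around the domain, 16 of 19 listed neighbours had peaks of their own, 48 in all, while Snurf, Snhg14 and Ipw had none apart from those of the members. One peak of Otud7a, which encodes a deubiquitinase, was called lower in the Hoxa deletion (-1.13), and none was called for Wnt6 or Hmx1. The medians of the neighbours were -0.06, -0.01 and 0.07. Of the 6 peaks near Mkrn1, Mkrn2, Frat1 and Frat2, relatives elsewhere of Mkrn3 and Peg12, none was called against the pooled others. A peak of Frat1 was called higher in Hoxa than in Hmx1, just past the minimum fold change. For Hoxa against the pooled others, the log2 fold changes of the gene sums were 0.54 for Frat1 and 0.33 for Frat2. Their edgeR adjusted p values were 2.82e-07 and 0.00524, with fold changes under the minimum. Mkrn1 and Mkrn2 had -0.10 and 0.09 there.

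The summed CPM of the 4 intronless genes ranged from 476.7 to 539.9 over the 7 libraries, or 0.18 on the log2 scale. Of 20093 genes with at least 5 CPM, not matched to this sum in level, 4.63% had a smaller range (median 0.49). Across the 7 libraries, genes over 1 Mb from any member whose log2 CPM was most like this sum were 4930538E20Rik (Pearson's r = 0.982), Cyp1b1 (0.981), Spata18 (0.978), Lratd1 (0.976) and Esrp1 (0.976). These were the highest of 20093 coefficients, of genes with at least 5 CPM, over the small range of the sum, and they are given as a description. Esrp1 itself ranged by 0.64 on the log2 scale, and the other named genes by 0.20 to 0.29.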

How the data were processed

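H3K27me3 Cut&Tag was measured in 7 libraries of mESCs with 3 deletions, grouped by the titles in the labels. The authors deposited raw counts per peak for a shared list of peaks, without normalization. Their processing notes name Bowtie2, Trimmomatic, SAMtools, Picard, MACS2, deepTools and mm10; versions, the treatment of PCR duplicates and of reads with several matches, and how the peak list was made are not given in the sources used here. If the list was called on part of the libraries, peaks strong in those are more likely to be on it. IgG libraries were not used here, and no background was subtracted.

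Peaks were matched to RefSeq gene bodies (GRCm38.p6, no exons used) within 5 kb, and peak positions are as deposited. CPM are scaled by TMM factors. Peaks were filtered with filterByExpr by genotype (17 removed) and tested with edgeR 4.0.16 (glmQLFit, glmQLFTest, R 4.3.3). Pairwise comparisons used a term for each genotype. Gene sums add the counts of all peaks within 5 kb of a gene. Standard errors and 95% intervals come from the F statistic. Libraries of one deletion differed by more than sampling noise (chi-square per degree of freedom 1.95 to 3.31). Scripts were tested on simulated counts. The members, gene lists and tests were chosen with earlier results of these data known. Named peaks are the strongest of each gene and that nearest its start; other peaks were named after their values were seen. Alternatives were DESeq2 1.42.0, other scalings, filters, windows and call rules, blocks by replicate number, fits without chromosome 8, and each library left out. Totals were 6016500 to 36563541 counts per library, so that counting precision is lowest for replicate 1 of the Hmx1 deletion.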

Additional observations from a re-analysis of the deposited data

How the results depend on the processing

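No member peak and no member gene was called under any alternative, with 174 values of 0 for 9 counts. All 1017 values of the named peaks and genes under alternatives stayed uncalled. In edgeR, without a minimum on the fold change, the count also stayed at 0. With peaks within 20 kb, the peak at chr7:62452442-62452678 had an adjusted p of 0.0459 in Hoxa against the others and 0.0288 in Hoxa against Hmx1, with log2 fold changes of 0.50 and 0.69, under the minimum.

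The ratio of the intronless genes to Snrpn and Ube3a was 6.52 with peaks that overlap the gene body, 3.70 within 20 kb, 4.32 with the strongest peak of each gene and 139.5 per kb of gene body plus 5 kb on each side, where the length of Snrpn enters, and 5.40 to 5.60 with a library left out. Median log2 fold changes moved by more than the spread between libraries in several cases, among them the following. With library totals they were 0.0798 for Hmx1 and -0.0861 for Hoxa against Hmx1, where the latter was -0.0615 within 20 kb. Without chromosome 8 they were -0.0335 for Hoxa against Wnt6 and -0.15 for Hoxa against Hmx1. The cause was not tested. With a library left out, the medians ranged from -0.132 to -0.0377 for Hoxa, from -0.0706 to -0.0191 for Wnt6, from 0.0807 to 0.141 for Hmx1, from -0.0211 to 0.0527 for Hoxa against Wnt6, from -0.13 to -0.11 for Hoxa against Hmx1 and from -0.16 to -0.10 for Wnt6 against Hmx1. Without Hmx1 replicate 2 the median for Hoxa was -0.0377, and without Wnt6 replicate 2 those of Wnt6, Hmx1 and Hoxa against Wnt6 were -0.0706, 0.0807 and 0.0527. Without Wnt6 replicate 1 the median for Hmx1 was 0.141. These, too, moved by more than that spread.

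Libraries with the same replicate number had correlations of their deviations from -0.06 to 0.07 over 6 pairs. With 2 libraries for Wnt6 and for Hmx1, deviations within such a deletion mirror each other. These correlations therefore cannot tell whether the number marks a shared batch. With the replicate number as a block, 0 member peaks were called in the 6 comparisons and 0 member genes in the 3 with the pooled others, the median for Hoxa against Hmx1 was -0.13, and the smallest adjusted p was 0.0309, for Mkrn3 in Hoxa against Hmx1. A block by the number in the description also gave 0 calls. Several weak peaks of Snrpn and the second peaks of Magel2 and Mkrn3 had intervals that reached past 1 on the log2 scale in at least 1 comparison. The parts of depth and of variation between libraries in this width were not tested.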
